A study of Mus musculus with 12 samples.

Results

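The genes described here encode proteins that astrocytes secrete or carry on their surface and that act on synapses. They were taken by symbol from a table of 20614 genes, and all 9 of them (Sparc, Sparcl1, Thbs1, Thbs2, Thbs4, Gpc4, Gpc5, Gpc6 and Chrdl1) were in it. RNA-seq had been run on astrocytes from the midbrain of male mice aged 12 to 14 months. Striatum, thalamus and substantia nigra had been dissected together, endothelial, myelin and CD11b+ cells had been removed, and the astrocytes had been taken from the remainder with antibody beads against ACSA-2, an epitope on the astrocyte protein ATP1B2. The genotypes were Cd38+/+ (3 libraries), Cd38+/- (3 libraries) and Cd38-/- (6 libraries), all without further treatment. The Cd38-/- line (B6.129P2-Cd38tm1Lnd/J) carries a disrupted Cd38 gene and was compared on the C57BL/6J background. The deletion was constitutive and present in every cell of the animal, so the isolated astrocytes had developed and aged in a body that lacked CD38 in other cells too.

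CD38 is an enzyme that breaks down NAD+ and makes the calcium messenger cyclic ADP-ribose. Thrombospondins are large secreted glycoproteins that promote the formation of excitatory synapses through the neuronal receptor α2δ-1, the product of Cacna2d1. SPARCL1 (hevin) helps to join the presynaptic neurexins to postsynaptic neuroligins, and SPARC, its close relative, counteracts it. Glypicans are heparan sulfate proteoglycans held in the membrane by a lipid anchor and shed from it; GPC4 and GPC6 recruit AMPA-type glutamate receptors to young synapses. CHRDL1 binds bone morphogenetic proteins (BMPs) and promotes the maturation of synapses. Astrocytes in the adult brain keep making SPARCL1 in large amounts, while thrombospondins 1 and 2 belong mainly to the developing or injured brain.

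The values are in TPM, a level scaled for transcript length and for the total of each library, so that levels of different genes can be set side by side. The level of Cd38 itself was 148.64, 120.04 and 104.88 TPM in the Cd38+/+ libraries, 90.80, 90.70 and 90.36 TPM in the Cd38+/- libraries, and between 8.54 and 21.86 TPM with a median of 15.67 TPM in the Cd38-/- libraries. No library of one genotype reached into the range of another. On the log2 scale Cd38-/- differed from Cd38+/+ by -2.96 ± 0.28 (SE; limma, q = 0.00116), and Cd38+/- by -0.44 ± 0.18 (limma, q = 0.226).

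The Cd38+/+ libraries stood apart in how many genes they detected. Between 13160 and 13516 genes were above 0 TPM in them, against 16160 to 16327 in Cd38+/- and 15920 to 17906 in Cd38-/-. Among 11373 genes with a mean above 5 TPM, 112 to 221 were listed at 0 in each Cd38+/+ library, 1 to 7 in each Cd38+/- library and 2 to 4 in each Cd38-/- library. The numbers of reads behind the TPM values were not used here, so the depth is unknown. The 10 astrocyte markers summed to 11089 to 16066 TPM in Cd38+/+, 15934 to 18099 TPM in Cd38+/- and 12304 to 15823 TPM in Cd38-/-. All 10 were above 0 in every library. Markers of other cells were present as well. Endothelial markers summed to 654.2 to 2964 TPM in Cd38+/+, 556 to 1075 TPM in Cd38+/- and 586.5 to 1906 TPM in Cd38-/-. Oligodendrocyte markers summed to between 1302 TPM (a Cd38+/+ library) and 17817 TPM (Cd38-/- replicate 3, above its 12304 TPM of astrocyte markers), and microglial markers stayed at 182.4 TPM or below. Transthyretin (Ttr), the leading transcript of choroid plexus, named here after its values were seen, was listed at 0 in 2 of 3 Cd38+/+ libraries and reached 6537.05 TPM in Cd38+/- replicate 1 and 1641.56 TPM in Cd38-/- replicate 2. In Cd38-/- against Cd38+/+, the comparison in which a member was called, 64.3% of all genes tested had a log2 fold change above 0. This held for 6 of 6 ependymal and choroid plexus markers, 6 of 6 microglial markers and 5 of 6 oligodendrocyte markers that were tested. The counts were 6 of 10 for astrocyte, 6 of 10 for mural and fibroblast, and 4 of 10 for endothelial markers. They were 2 of 6 for neurons, 2 of 5 for oligodendrocyte precursors and 1 of 1 for neuroblasts. In the same comparison 6 genes of the cell marker lists were called, beside 8.28% of all genes tested. Of these 6 genes, Folr1 and Ttr (choroid plexus), Gfap (astrocytes), Cd24a (ependymal cells and neuroblasts) and P2ry12 (microglia) were higher. Neu4 (oligodendrocyte precursors) was lower, and they too were named after their values were seen. P2ry12 was at 0 to 6.23 TPM in Cd38+/+ with a median of 0, so it was tested only through the group in which it was higher. Gfap was at 236.13 to 370.78 TPM in Cd38+/+, 697.74 to 797.99 TPM in Cd38+/- and 405.77 to 722.74 TPM in Cd38-/-. The part of other cells in the members' levels was not tested. In such bulk samples, fewer cells of a type and less RNA per cell cannot be told apart.

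The members differed widely in level. Sparcl1 had the highest mean over the 12 libraries, 5395 TPM, followed by Sparc with 3426 TPM, Gpc5 with 207 TPM, Gpc6 with 27.5 TPM, Gpc4 with 27.1 TPM, Thbs2 with 14.8 TPM, Thbs4 with 8.75 TPM, Chrdl1 with 6.15 TPM and Thbs1 with 2.37 TPM. Sparcl1 ranked between 5 and 13 among all genes in every library, and Sparc between 12 and 26. The pair alone held 0.686% to 1.06% of all TPM. Gpc6 and Gpc4, neighbours in this order, spanned 14.40 to 42.83 and 18.66 to 43.35 TPM and did not separate, nor did Thbs2, Thbs4, Chrdl1 and Thbs1 as neighbours, since the range of each overlapped the next. The order is that of a mean over genotypes of unequal size, and in Cd38+/+ alone Thbs4 was the lowest, below Thbs1 (3.47 TPM) and Chrdl1 (3.81 TPM).

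**Figure D1:**
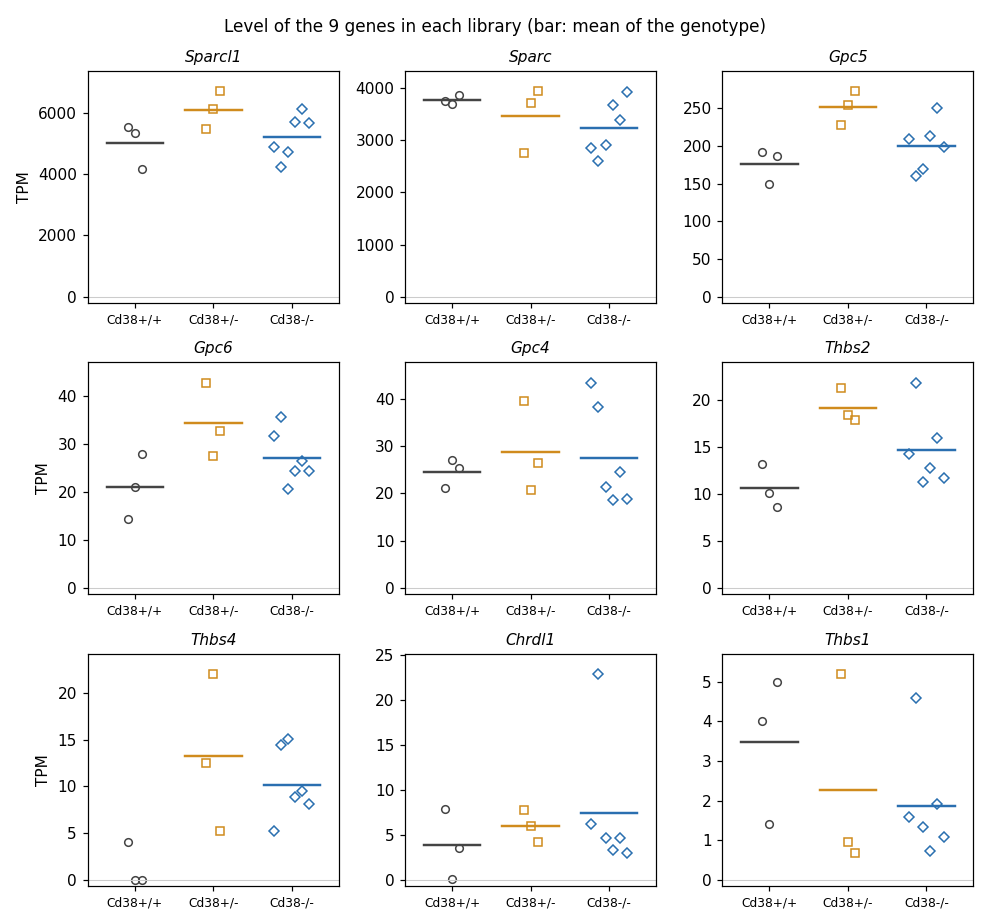
TPM (vertical axis, linear, from 0) of each of the 9 genes in every library, grouped by genotype (horizontal axis); points are libraries and bars are genotype means, left out for Thbs4 in Cd38+/+ because 2 libraries were listed at 0. The Cd38+/+ points of Thbs4, at 0, 0 and 4.01 TPM, lie below all 9 libraries of the mutant genotypes, whereas the genotypes overlap for Sparcl1, Sparc and Gpc4.

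For every member it was asked whether it differed between Cd38-/- and Cd38+/+, between Cd38+/- and Cd38+/+, and between Cd38-/- and Cd38+/-. A gene was tested where its mean passed 5 TPM in at least one of the compared genotypes, and called where its q-value (Storey) was below 0.05 and its change at least 1.2-fold on the log2(TPM + 1) scale. By this filter 8 of the 9 genes were tested in each comparison. Thbs1 did not pass.

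In Cd38-/- against Cd38+/+, 1 of the 8 tested members was called, Thbs4, which was higher; 970 of 11722 genes tested were called in the same comparison (8.28%, and 6.42% called higher). At an unadjusted p under 0.05 there were again 1 member and 2767 genes (23.6%). The calls over all genes were 752 higher and 218 lower, a split that moved to 551 and 390 with median-ratio scaling, 563 and 552 with quantile normalization, and 434 and 971 once the trend with transcript length and GC content was removed. In Cd38+/- against Cd38+/+, none of the 8 was called, as was the case for all genes tested (0 of 11763, 0.0%, with limma). At an unadjusted p under 0.05 there were 3 members in that comparison and 1586 genes overall (13.5%). In Cd38-/- against Cd38+/-, 0 of 8 were called against 4 of 11563 genes tested (0.0346%), and 1 member (Gpc5) and 1299 genes (11.2%) had an unadjusted p under 0.05. Most log2 fold changes against Cd38+/+ were above 0. This held for 7 of 8 members in both comparisons, beside 64.3% of all genes tested for Cd38-/- and 64.4% for Cd38+/-. Of the 7, Thbs4 and Chrdl1 passed the filter only through the mutant genotype, in which their means were higher, so their sign was favoured by the filter. Thbs1, which the filter left out, was below 0 in both when fitted without it (-0.65 in Cd38-/- and -0.62 in Cd38+/-). The median log2 fold change of the members was 0.28 against 0.15 for all genes in Cd38-/-, and 0.61 against 0.18 in Cd38+/-. The members' count in Cd38-/- depended on the scaling: 5 of 8 were above 0 with median-ratio scaling (median 0.15) and with quantile normalization (median 0.15), and 4 of 8 once the trend with length and GC content was removed (median -0.03). In Cd38+/- the same settings gave 7, 6 and 6 of 8, with medians of 0.47, 0.46 and 0.32. Between the mutant genotypes, 8 of 8 members had a log2 fold change below 0 in Cd38-/-, with a median of -0.23 against -0.02 for all genes, of which 45.4% were above 0. Astrocyte markers moved the same way, with 9 of 10 below 0, 0 called and a median of -0.26, and their part in the members' values was not tested. None of the 8 separated the mutant genotypes without overlap, as 5.73% of all genes did. The value of Chrdl1 there was -0.01 ± 0.48 (SE), and those of Chrdl1, Gpc4 and Thbs4 turned above 0 under at least one other setting. Median-ratio scaling moved the median of all genes from 0.15 to 0.03 in Cd38-/- and from 0.18 to 0.05 in Cd38+/- against Cd38+/+. The comparisons share libraries, so they are not independent of each other.

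**Figure D2:**
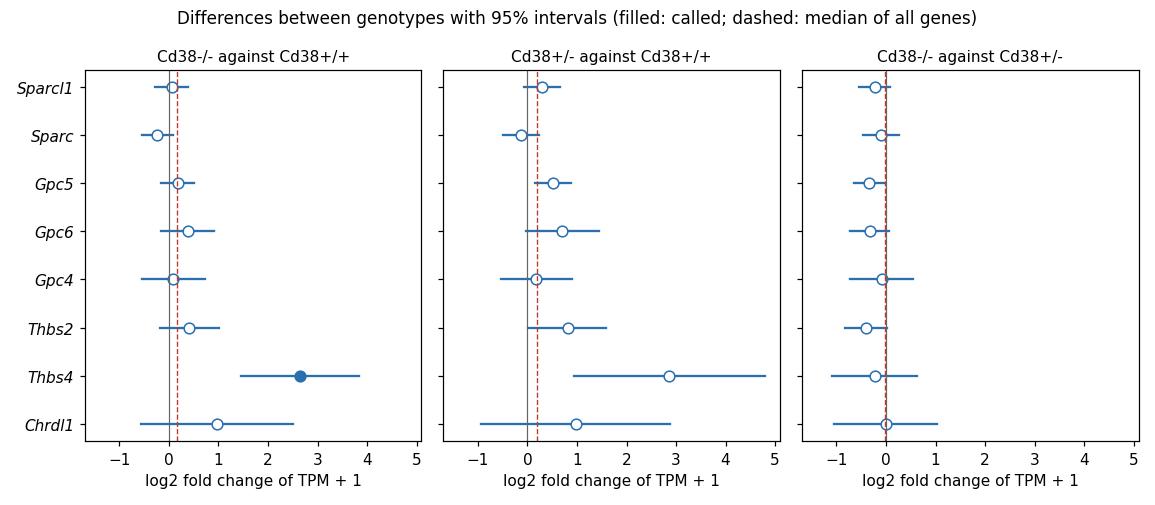
Log2 fold change of TPM + 1 (horizontal axis) of the 8 tested genes (vertical axis) in the 3 comparisons, with 95% intervals from limma; filled points are called, and the dashed line is the median of all genes tested. Thbs4 is the one filled point, at 2.64 in Cd38-/- against Cd38+/+, and the intervals of Gpc5, Thbs2 and Thbs4 lie above 0 in Cd38+/- against Cd38+/+.

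The thrombospondins are encoded by single genes on different chromosomes. Thbs4 (ENSMUSG00000021702) spans chr13:92751590-92794818 on the minus strand of GRCm38 and Thbs2 (ENSMUSG00000023885) chr17:14665500-14694235 on the minus strand. Thbs1 (ENSMUSG00000040152) spans chr2:118111876-118127133 on the plus strand. The longest annotated transcript of each has 22 exons. The promoter of Thbs4 is printed here because this was the member that was called, and that of Gpc5 because it had the smallest unadjusted p of the members between the mutant genotypes. Both are from RefSeq on GRCm38.p6, run from 250 bases before the transcript start to 50 bases after it, and carry in capitals the letters GGGCGG (the GC box) and TATAAA (the TATA box) or their reverse complements. The first is chr13:92794769-92795068 (minus strand) and the second chr14:115091965-115092264 (plus strand), both read 5′ to 3′ along the gene.
Thbs4: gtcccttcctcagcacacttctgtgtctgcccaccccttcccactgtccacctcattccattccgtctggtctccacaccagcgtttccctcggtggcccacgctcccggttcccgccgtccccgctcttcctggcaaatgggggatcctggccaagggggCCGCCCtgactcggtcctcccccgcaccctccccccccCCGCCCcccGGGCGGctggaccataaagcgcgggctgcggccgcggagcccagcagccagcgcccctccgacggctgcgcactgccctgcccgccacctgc
Gpc5: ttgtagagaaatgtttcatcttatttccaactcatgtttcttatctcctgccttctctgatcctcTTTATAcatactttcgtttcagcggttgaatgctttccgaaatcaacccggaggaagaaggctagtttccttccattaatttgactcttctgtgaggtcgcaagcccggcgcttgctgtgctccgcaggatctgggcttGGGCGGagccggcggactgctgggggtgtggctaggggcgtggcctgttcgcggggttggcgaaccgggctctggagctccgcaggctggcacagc
The Thbs4 window holds GGGCGG 3 times, counting both strands, and is GC rich, with 72.0% G or C and 24 CpG dinucleotides; 93.1% of the 32851 RefSeq promoters had a lower GC content, and the median CpG count was 7. The Gpc5 window has 54.7% G or C and 17 CpG dinucleotides, 1 GGGCGG and 1 TATAAA, the latter on the opposite strand. Searched on both strands, GGGCGG was in 35.7% of all promoters of this length, TATAAA in 13.6%, CCAAT (the CCAAT box) in 37.4% and TGACTCA (an AP-1 site) in 5.2%. None of these motifs contains another. The table held promoters for 5 of the 9 genes. Of these, 3 had GGGCGG, 2 had TATAAA, 1 had CCAAT and 0 had TGACTCA.

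Thbs4, whose product forms pentamers and is made by astrocytes as well as by muscle and tendon, had 4.01 TPM in the first Cd38+/+ library and was listed at 0 in the other two. In the Cd38+/- libraries it was at 12.57, 22.04 and 5.17 TPM. In the Cd38-/- libraries it was at 5.19, 14.42, 15.13, 8.83, 9.54 and 8.10 TPM. The lowest mutant library was thus above the highest Cd38+/+ library, while the mutant genotypes overlapped. On the log2(TPM + 1) scale the gene was 2.64 ± 0.55 (SE) higher in Cd38-/- than in Cd38+/+, with a 95% interval of 1.45 to 3.83 (limma, q = 0.0192), and an exact two-sided permutation test gave p = 0.0119, the smallest that 6 libraries against 3 allow. Of the genes tested, 11.8% did not overlap between these genotypes, 8.21% with Cd38-/- higher. The size of the change depended on the pseudocount, with 4.81 at a pseudocount of 0.1 TPM and 1.28 at 5 TPM. Thbs4 passed the filter only through the mutant libraries, and it was one of the genes listed at 0 in Cd38+/+ libraries that detected fewer genes, a difference whose part in the result was not tested. The call was lost without Cd38-/- replicate 2 (limma, q = 0.0607) and without Cd38-/- replicate 5 (limma, q = 0.0552), with library quality weights (limma, q = 0.247) and in 2 fits with the replicate number as a term, which are given with the other alternatives; the 16 others of the 21 alternatives in which it was tested kept it. It was not tested when at least 1 TPM was asked of every library.

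**Figure D3:**
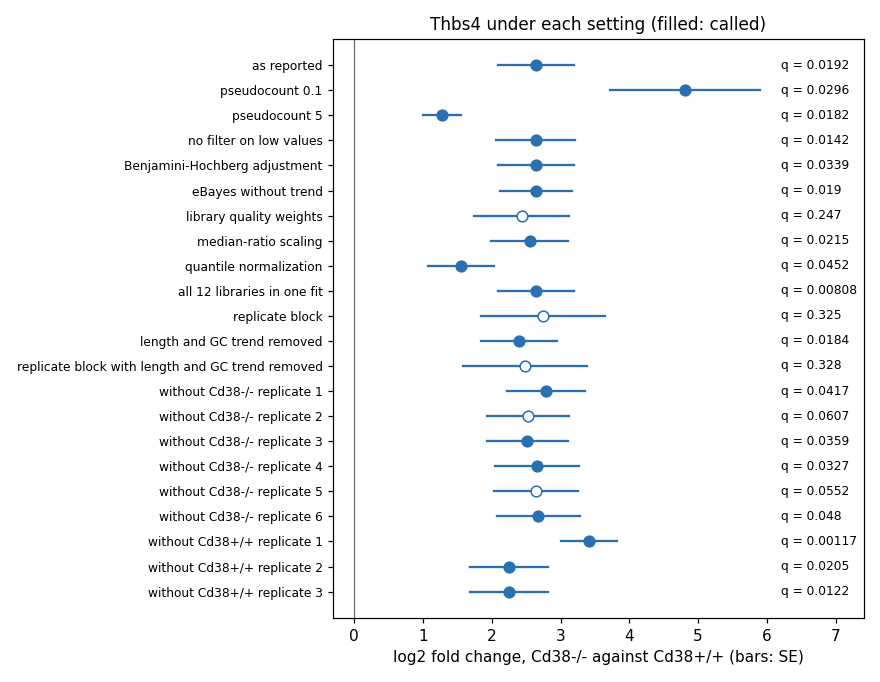
Log2 fold change of Thbs4 in Cd38-/- against Cd38+/+ (horizontal axis, bars are standard errors) under the reported setting and the 21 alternatives in which it was tested (vertical axis), with the q-value of each; filled points are called. All values lie above 0, from 1.28 to 4.81, and 5 of the alternatives are not called.

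In Cd38+/- against Cd38+/+ the difference of Thbs4 was 2.86 ± 0.85 (SE), and with 3 libraries a side it was not called (limma, q = 0.177; exact permutation p = 0.1, the smallest possible). Between Cd38-/- and Cd38+/- it was -0.23 with a 95% interval of -1.09 to 0.63. That value was 0.22 without Cd38+/- replicate 2, the highest library of its genotype. It ran from -0.73 to 0.22 when single libraries were left out, so it depended on more than this library.

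Thbs2, one of the thrombospondins of immature astrocytes, was at 13.17, 10.10 and 8.66 TPM in Cd38+/+ and at 21.29, 18.38 and 17.85 TPM in Cd38+/-. The Cd38-/- libraries spanned 11.32 to 21.80 TPM with a median of 13.51 TPM and overlapped both other genotypes. Every Cd38+/- library was above every Cd38+/+ library. That difference, 0.81 ± 0.35 (SE; 95% interval 0.02 to 1.59), was not called (limma, q = 0.229; exact permutation p = 0.1), and neither was that of Cd38-/- against Cd38+/+, 0.41 ± 0.27 (limma, q = 0.218). Removal of the trend with length and GC content brought them to 0.38 and 0.05. Including Thbs2, 3 of 8 tested members (Thbs2, Thbs4 and Gpc5) did not overlap between Cd38+/- and Cd38+/+, all of them higher in Cd38+/-, where 22.5% of all genes did not overlap and 15.5% were higher. When all 12 libraries were fitted together these same 3 were called in Cd38+/- against Cd38+/+ (limma, q = 0.0477 for Thbs2, 0.0138 for Thbs4 and 0.0391 for Gpc5), in a fit that called 1464 genes in all.

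Thbs1, which is induced in astrocytes by injury, had the lowest mean of the 9 members over the 12 libraries. It was at 4.02, 1.40 and 5.00 TPM in Cd38+/+, at 5.19, 0.94 and 0.67 TPM in Cd38+/-, and at 0.72 to 4.58 TPM with a median of 1.46 TPM in Cd38-/-. The genotypes overlapped throughout. Fitted without the filter, Cd38-/- differed from Cd38+/+ by -0.65 on the log2 scale, with a 95% interval of -1.60 to 0.30 (limma, q = 0.187). Thbs3, a relative outside the 9 genes, was at a higher level than these, with 67.3 ± 36.7 TPM (SD, n = 3) in Cd38+/+, 43.6 ± 7.05 TPM (SD, n = 3) in Cd38+/- and 46.2 ± 5.83 TPM (SD, n = 6) in Cd38-/-, and it was not called (limma, q = 0.299 for Cd38-/- against Cd38+/+).

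SPARC and SPARCL1 are calcium-binding matricellular proteins of the same family. Sparc (ENSMUSG00000018593) lies at chr11:55394500-55423183 and Sparcl1 (ENSMUSG00000029309) at chr5:104079111-104113733, both on the minus strand of GRCm38. Sparcl1 was at 5538.31, 5338.11 and 4170.94 TPM in Cd38+/+ and at 5475.65, 6134.61 and 6708.07 TPM in Cd38+/-. In Cd38-/- it was at 4248.30 to 6122.11 TPM with a median of 5290 TPM. The genotypes overlapped. The log2 difference of Cd38-/- from Cd38+/+ was 0.06 with a 95% interval of -0.28 to 0.39 (limma, q = 0.48). Its sign turned with median-ratio scaling (-0.07), with the trend with length and GC content removed (-0.20), without Cd38+/+ replicate 3 (-0.07) and in the fits with a replicate term.

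Sparc was held within a narrow range in Cd38+/+, at 3752.65, 3689.63 and 3866.42 TPM, with a coefficient of variation of 2.38%. It was at 2757.05, 3721.94 and 3940.69 TPM in Cd38+/-. In Cd38-/- it was at 2855.76, 2612.33, 2913.14, 3686.92, 3393.02 and 3927.11 TPM. Replicate 1 of Cd38+/- and replicates 1, 2 and 3 of Cd38-/- were thus the lowest of the 12, and the other mutant libraries ranged from 3393.02 to 3940.69 TPM. Sparc was the tested member with a log2 fold change below 0 in Cd38-/- against Cd38+/+, -0.24 ± 0.14 (SE; 95% interval -0.55 to 0.08), and it was not called (limma, q = 0.193). The ratio of Sparcl1 to Sparc was 1.08 to 1.48 in Cd38+/+, 1.65 to 1.99 in Cd38+/- and 1.45 to 1.80 in Cd38-/-. The Cd38+/- range lay wholly above that of Cd38+/+, while that of Cd38-/- overlapped both. The ratio was not tested, and neither gene alone separated Cd38+/- from Cd38+/+ in TPM. Of all genes tested, 22.5% did so. Among the relatives of the pair, Spock2 was at 26.7 ± 7.87 TPM (SD, n = 3) in Cd38+/+ and 20.8 ± 3.80 TPM (SD, n = 6) in Cd38-/-, and Smoc1 at 21.4 ± 6.08 and 24.9 ± 5.99 TPM. Of the 6 relatives, 4 were tested in Cd38-/- against Cd38+/+ and 0 were called, beside 8.28% of all genes tested.

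**Figure D4:**
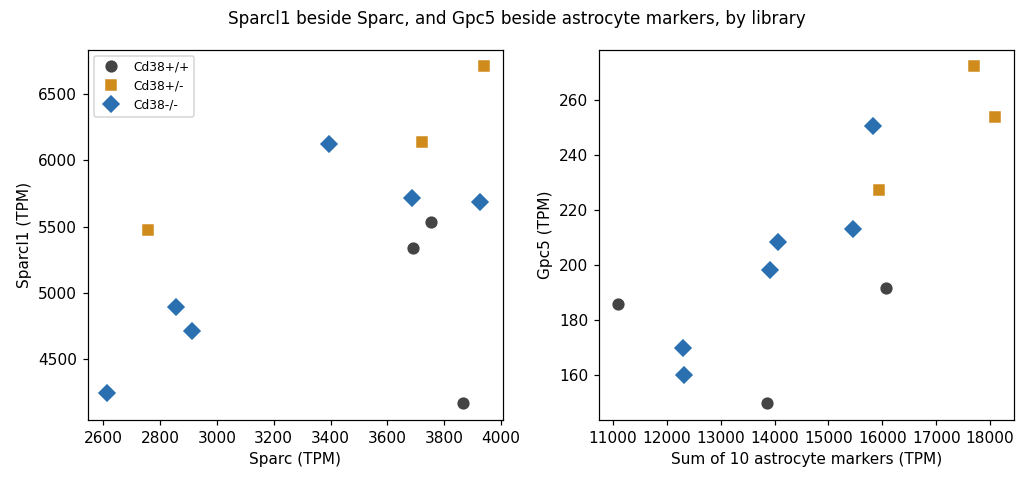
Left, Sparcl1 against Sparc (both in TPM) in each library; right, Gpc5 (TPM) against the sum of 10 astrocyte markers (TPM); symbols give the genotype and the axes do not start at 0. On the left the ratio of Sparcl1 to Sparc, which was not tested, is 1.65 to 1.99 in Cd38+/- and 1.08 to 1.48 in Cd38+/+. On the right the Cd38+/- libraries, at 227.35 to 272.36 TPM of Gpc5, also have the largest or nearly the largest marker sums.

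Gpc5 (ENSMUSG00000022112) and Gpc6 (ENSMUSG00000058571) are neighbours on chromosome 14, at chr14:115092215-116525179 and chr14:116925315-117976544 on the plus strand, and Gpc4 (ENSMUSG00000031119) is on the X chromosome, at chrX:52053021-52165252 on the minus strand. Gpc5 was the main glypican of these astrocytes and made up 68.4% to 84.4% of the TPM of the 3 genes in every library. It was at 191.84, 149.78 and 185.93 TPM in Cd38+/+, at 227.35, 254.09 and 272.36 TPM in Cd38+/-, and at 160.10 to 250.79 TPM with a median of 203.4 TPM in Cd38-/-. All Cd38+/- libraries were above all Cd38+/+ libraries. The log2 difference was 0.52 ± 0.16 (SE; 95% interval 0.15 to 0.88), an unadjusted p of 0.0112 that did not pass the threshold over all genes (limma, q = 0.186; exact permutation p = 0.1). The log2 difference of Cd38-/- from Cd38+/- was -0.34 ± 0.14 (SE), again not called (limma, q = 0.289; exact permutation p = 0.0595), and its difference from Cd38+/+ was 0.18 with a 95% interval of -0.16 to 0.51. Most astrocyte markers moved the same way in Cd38+/- against Cd38+/+. A log2 fold change above 0 was found for 9 of 10 markers (0 of 10 called), beside 64.4% of all genes tested. The glutamate transporter Slc1a3 was at 1964.13 to 2688.33 TPM in Cd38+/+ and 3022.39 to 3431.19 TPM in Cd38+/-. Aldoc, the marker of highest level, overlapped, at 3548.6 to 5812.11 TPM in Cd38+/+ and 4323.58 to 5834.91 TPM in Cd38+/-. Per 1000 TPM of the summed markers, Gpc5 was at 10.8 to 16.8 in Cd38+/+, 14.0 to 15.4 in Cd38+/- and 13.0 to 15.8 in Cd38-/-, so that the genotypes overlapped on this scale, which was chosen after the data were seen. On it Thbs2 was at 0.729 to 0.820 in Cd38+/+ and 1.01 to 1.34 in Cd38+/-, still without overlap. Its Cd38-/- range of 0.828 to 1.77 overlapped that of Cd38+/- and lay just above Cd38+/+, which it had overlapped in TPM. Thbs4 was at 0 to 0.25 in Cd38+/+, 0.292 to 1.22 in Cd38+/- and 0.369 to 1.23 in Cd38-/-. Of all genes tested, 3.83% lay wholly higher in Cd38+/- than in Cd38+/+ on this scale and 5.02% wholly higher in Cd38-/- than in Cd38+/+. Sparc, which overlapped in TPM, lay lower in Cd38+/- (173 to 223) than in Cd38+/+ (234 to 349), as did 16.4% of all genes; the divisor itself was higher in Cd38+/-.

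Gpc6 was at 14.40, 21.04 and 27.93 TPM in Cd38+/+ and at 42.83, 27.63 and 32.83 TPM in Cd38+/-. It was at 20.60 to 35.61 TPM with a median of 25.5 TPM in Cd38-/-. The lowest Cd38+/- library fell just under the highest Cd38+/+ library. Neither difference from Cd38+/+ was called, 0.70 ± 0.33 (SE; limma, q = 0.245) for Cd38+/- and 0.38 ± 0.25 (limma, q = 0.212) for Cd38-/-. With the trend with length and GC content removed they were 0.35 and 0.03, and the latter ranged from 0.14 to 0.59 when single libraries were left out.

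Gpc4 overlapped between the genotypes and varied most within the mutant ones, with an SD of 9.62 TPM in Cd38+/- and 10.6 TPM in Cd38-/-. In Cd38+/+ the SD of Gpc4 was 3.11 TPM. It was at 21.09, 27.15 and 25.37 TPM in Cd38+/+, at 39.41, 20.62 and 26.43 TPM in Cd38+/-, and at 43.35, 38.24, 21.31, 18.66, 24.61 and 18.81 TPM in Cd38-/-. The high libraries were replicate 1 of Cd38+/- and replicates 1 and 2 of Cd38-/-, which were also among the 4 libraries lowest in Sparc; their deviations from the mean of all libraries were 0.58, 0.71 and 0.54 on the log2 scale. Against Cd38+/+, the log2 difference was 0.09 for Cd38-/- (95% interval -0.54 to 0.72; limma, q = 0.501) and 0.18 for Cd38+/- (95% interval -0.53 to 0.90; limma, q = 0.508). The sum of the 3 glypicans was 198 to 239 TPM in Cd38+/+, 302 to 332 TPM in Cd38+/- and 212 to 302 TPM in Cd38-/-. Most of this sum was Gpc5, whose separation of Cd38+/- from Cd38+/+ is given above, and the sum was not tested. Of all genes tested, 22.5% did not overlap between Cd38+/- and Cd38+/+.

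Chrdl1 (ENSMUSG00000031283), at chrX:143285674-143394262 on the minus strand, passed the filter in Cd38-/- only with the help of one library. It was at 7.87, 0.02 and 3.55 TPM in Cd38+/+ and at 7.70, 5.92 and 4.15 TPM in Cd38+/-. In Cd38-/- it was at 6.14, 22.84, 4.66, 3.30, 4.66 and 3.00 TPM. Replicate 2 stood far above the other Cd38-/- libraries, which averaged 4.35 ± 1.26 TPM (SD, n = 5) and were within the range of Cd38+/+. The log2 difference of Cd38-/- from Cd38+/+ was 0.97 with a 95% interval of -0.57 to 2.50 (limma, q = 0.241), too wide to tell a fall from a rise of several fold at this number of libraries. The difference was 0.60 without Cd38-/- replicate 2, when the gene no longer passed the filter, and 0.09 without Cd38+/+ replicate 2, the library at 0.02 TPM. Of 7 other BMP antagonists, 3 were tested against Cd38+/+ (Chrd, Bmper and Nog) and 0 were called. Of all genes tested, 8.28% were called in Cd38-/- against Cd38+/+ and 0.0% in Cd38+/- against Cd38+/+. Chrd was at 7.71 ± 4.73 TPM (SD, n = 3) in Cd38+/+ and at 3.20 ± 0.778 TPM (SD, n = 6) in Cd38-/- (limma, q = 0.127).

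**Figure D5:**
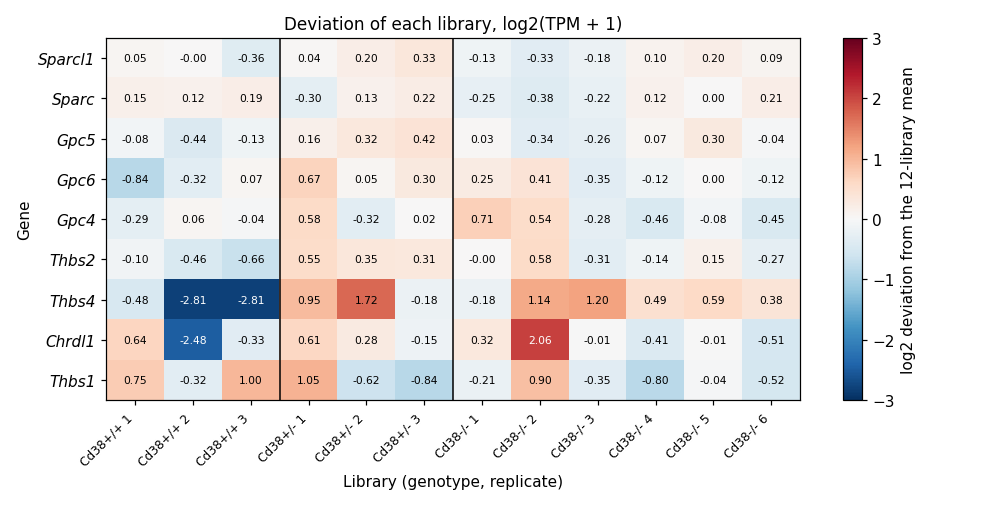
Log2 deviation of each library (horizontal axis, by genotype and replicate) from the mean of the 12 libraries for each gene (vertical axis), from log2(TPM + 1); red is above and blue below the mean. Sparcl1, Sparc and Gpc5 stay between -0.44 and 0.42, Thbs4 is at -2.81 in 2 Cd38+/+ libraries, and Cd38-/- replicate 2 is highest of its genotype for Chrdl1 (2.06), Thbs2 (0.58) and Thbs1 (0.90).

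Library by library, the members fell into patterns that crossed the genotypes. Cd38-/- replicate 2 was the highest of its genotype for Thbs1, Thbs2, Gpc6 and Chrdl1 and the lowest for Sparc, Sparcl1 and Gpc5. Cd38+/- replicate 1 was the highest of its genotype for Thbs1, Thbs2, Gpc4, Gpc6 and Chrdl1 and the lowest for Sparc, Sparcl1 and Gpc5. These were the libraries with the most Ttr. Their summed ependymal and choroid plexus markers were at 4493 and 8676 TPM, against 1619 to 3520 TPM in the remaining libraries, and the part of these cells in the levels was not tested.

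The genes whose log2 levels ran most nearly parallel to each member over the 12 libraries were looked up among 11201 genes. For Sparcl1 they were Cyp4f14 (Pearson r = 0.966) and Mmd2 (0.952). For Sparc they were Nkain4 (0.876) and Tmem9b (0.854), and for Gpc5 they were Pgm1 (0.929) and Gpr37 (0.924). Thbs2 ran with Vasn (0.926) and the growth factor receptor gene Fgfr2 (0.905), Thbs4 with the kinase gene Lyn (0.924) and the replication gene Mcm2 (0.923). Gpc4 ran with Dnajb14 (0.951) and Pds5b (0.944), Gpc6 with Tmem94 (0.958) and Sp4 (0.949), and Chrdl1 with Mapre1 (0.934) and Fbln2 (0.923). All points share the same 12 libraries and their genotypes, and these are the highest of many values.

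The partners of the 9 proteins were measured as well. Of 23 receptors and partners, such as the α2δ-1, neurexin, neuroligin, AMPA receptor and integrin genes, 17 were tested in Cd38-/- against Cd38+/+. Of these, 1 was called higher and 0 lower, beside 8.28% of all genes tested called and 6.42% called higher. The median log2 fold change was 0.31, against 0.15 for all genes. The called gene was Ptprd, a receptor tyrosine phosphatase that organises presynaptic terminals, at 16.8 ± 1.88 TPM (SD, n = 3) in Cd38+/+, 38.5 ± 6.40 TPM (SD, n = 3) in Cd38+/- and 29.5 ± 6.38 TPM (SD, n = 6) in Cd38-/-. Cd38-/- was higher than Cd38+/+ by 0.75 ± 0.23 on the log2 scale (SE; limma, q = 0.0465). In Cd38+/-, 0 of 16 tested were called.

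Heparan sulfate, the sugar chain on the glypicans, is built by a set of enzymes, of which 15 of 18 were tested in Cd38-/- against Cd38+/+. Among them 2 were called higher and 0 lower, beside 8.28% of all genes tested called and 6.42% called higher. Xylt2, which attaches the first sugar to the core protein, was at 16.6 ± 5.72 TPM (SD, n = 3) in Cd38+/+ and 29.4 ± 2.99 TPM (SD, n = 6) in Cd38-/- (log2 fold change 0.84; limma, q = 0.0401). Ext1, a polymerase of the chain, was at 12.3 ± 10.3 and 27.2 ± 5.30 TPM (log2 fold change 1.33; limma, q = 0.041). The median log2 fold change of the 15 was 0.26, against 0.15 for all genes. In Cd38+/- against Cd38+/+ 0 of 15 were called, and the median was 0.33, against 0.18 for all genes. The other glypicans, Gpc1, Gpc2 and Gpc3, were tested and not called in any comparison. Gpc1 was at 50.4 ± 14.1 TPM (SD, n = 3) in Cd38+/+ and 54.6 ± 8.35 TPM (SD, n = 6) in Cd38-/-. Gpc2 was at 2.67 ± 2.51 and 5.24 ± 0.467 TPM, and Gpc3 at 15.0 ± 15.2 and 20.2 ± 6.68 TPM. All 3 leaned higher in Cd38-/- than in Cd38+/+, but Gpc2 was tested there only through Cd38-/-, the group in which it was higher. On the log2 scale Gpc1 was higher by 0.13 ± 0.2 (SE; limma, q = 0.406). The shift was 1.11 ± 0.51 for Gpc2 (limma, q = 0.122) and 1.35 ± 0.82 for Gpc3 (limma, q = 0.192).

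In the BMP pathway, on which CHRDL1 acts, 11 of 15 genes were tested and 0 were called in any comparison. Of all genes tested, 8.28% were called in Cd38-/- against Cd38+/+. There 5 of the 11 had an unadjusted p under 0.05 (limma), beside 23.6% of all genes. The count was 4 of 11 beside 13.5% in Cd38+/- against Cd38+/+, and 0 of 11 beside 11.2% in Cd38-/- against Cd38+/-. The BMP target gene Id3 was at 603 ± 28.9 TPM (SD, n = 3) in Cd38+/+, 487 ± 32.9 TPM (SD, n = 3) in Cd38+/- and 467 ± 58.3 TPM (SD, n = 6) in Cd38-/-, which did not pass the threshold (log2 fold change -0.38 in Cd38-/-; limma, q = 0.0582). Bmp6, a ligand, was at 32.6 ± 11.9 TPM (SD, n = 3) in Cd38+/+ and 52.7 ± 17.2 TPM (SD, n = 6) in Cd38-/- (limma, q = 0.101).

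Other secreted factors of astrocytes showed no call either. Of 18 such genes 12 were tested in Cd38-/- against Cd38+/+ and 13 in the other comparisons, and 0 were called. Of all genes tested, 8.28% were called in Cd38-/- against Cd38+/+, 0.0% in Cd38+/- against Cd38+/+ and 0.0346% in Cd38-/- against Cd38+/-. Apoe, the main lipid carrier, was at 47966 ± 2825 TPM (SD, n = 3) in Cd38+/+ and 36927 ± 5421 TPM (SD, n = 6) in Cd38-/- (limma, q = 0.126). Clu, a chaperone that also carries lipid, was at 6023 ± 523 and 7077 ± 410 TPM (limma, q = 0.152), and the growth factor gene Tgfb3 at 5.19 ± 5.05 and 13.0 ± 2.92 TPM (limma, q = 0.0546). Among 14 genes of the extracellular matrix and its proteases, 12 were tested in Cd38-/- against Cd38+/+, where 8.28% of all genes were called. Of the 12, 1 was called, Lamb1, the laminin β1 chain (limma, q = 0.0362). It was listed between 0 and 10.84 TPM in Cd38+/+, where its mean did not reach 5 TPM, and at 8.45 to 23.78 TPM in Cd38-/-, so it was tested only through the group in which it was higher and the libraries overlapped. Of genes that respond to the dissociation of tissue, 2 of 16 tested were called in Cd38-/- against Cd38+/+, beside 8.28% of all genes. Both were lower, namely Klf6 (log2 fold change -0.91, limma, q = 0.00616) and Junb (-1.03, limma, q = 0.0249). In Cd38+/- against Cd38+/+, 0 of 16 were called, 13 of 16 had a log2 fold change below 0 and the median was -0.59. Of all genes tested there, 64.4% were above 0, with a median of 0.18. The sum of the 18 genes was 1089 to 1369 TPM in Cd38+/+, 576.8 to 902.5 TPM in Cd38+/- and 700.5 to 1286 TPM in Cd38-/-. The part of dissociation in the members' levels was not tested.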

How the data were processed

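Astrocyte RNA had been depleted of ribosomal RNA, amplified with a low-input full-length cDNA kit and sequenced in pairs. According to the study's methods and the submitters' processing notes, the authors trimmed reads with Trim Galore 0.6.4, aligned them to mm10 with STAR 2.7.1a and estimated expression with RSEM 1.2.28. The deposited values are TPM per gene, rounded to 2 decimals, for 12 libraries; no column was left unmapped. The annotation release was not given in the sources used here. Values were analysed as log2(TPM + 1) with limma 3.58.1 in R 4.3.3 (empirical Bayes with a trend), using only the libraries of the genotypes compared, a mean above 5 TPM in either genotype as filter, Storey q-values over all genes tested, and a call at q below 0.05 and 1.2-fold. Single genes were also compared with an exact two-sided permutation test of the difference of means. The fit was tested on simulated data. Gene coordinates were taken from GENCODE vM21 (GRCm38), and promoters from RefSeq on GRCm38.p6. TPM carries no depth, so no counting interval can be given. Nothing in the labels says how animals map to libraries beyond one library per sample, so p-values measure only the spread between these samples. The paper describes its controls as matched by litter and/or peers, and the labels do not say whether replicate numbers pair the samples. Correlations of the deviations of same-numbered libraries ran from -0.317 to 0.501. Those of differently numbered libraries ran from -0.557 to 0.529. The same-numbered values lay within that range, which does not exclude a pairing. The members and the gene lists were chosen with earlier results of these data known. Genes named were the 9 members, Cd38, the called genes of each list (with none called, the 3 tested genes of smallest p), the 2 markers of highest level in each cell type, and the 2 genes most correlated with each member. The alternatives changed the pseudocount, filter, adjustment, variance trend, weights, scaling, libraries fitted, replicate block, and length and GC trend, and left out each library in turn.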

Additional observations from a re-analysis of the deposited data

Results flagged for a closer look

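Among 32 groups of Cd38-/- values examined, 1 library lay far from the rest in 3 (Dixon's test at its 95% critical value of 0.625 for 6 libraries); chance flags about 1 in 20 groups. Thbs1 reached 4.58 TPM in Cd38-/- replicate 2, where the next library had 1.91 TPM, a gap of 0.692 of the whole range. Chrdl1 reached 22.84 TPM in the same library, with 6.14 TPM next and a gap of 0.842. Spock2, a relative of Sparc, reached 28.53 TPM in Cd38-/- replicate 1, with 19.95 TPM next and a gap of 0.881.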

How the results depend on the processing

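The depth behind each TPM value is unknown, genes near 0 in Cd38+/+ have no usable fold, and the cause of each change below was not tested. For Cd38-/- against Cd38+/+ the count of called members fell from 1 to 0 with at least 1 TPM asked of every library (which left Thbs4 untested), with library quality weights, with the replicate block and with the block together with the length and GC trend removed, and ranged from 0 to 1 when single libraries were left out. The count over all genes in that comparison, 970, became 2283 without a filter, 326 with Benjamini-Hochberg adjustment, 1 with weights, 1822 with all 12 libraries in one fit, and 2 with the replicate block, alone or with the trend removed; leaving out single libraries gave 74 (without Cd38-/- replicate 2) to 3119 (without Cd38+/+ replicate 3). For Cd38+/- against Cd38+/+ the members called rose from 0 to 3 with all 12 libraries in one fit. The 0 calls over all genes became 663 without a filter, 9 without the variance trend, 30 with weights, 1464 with all 12 libraries, 4 with the block, 1 with block and trend removal, and 0 to 10 on leaving out single libraries (10 without Cd38+/+ replicate 3). For Cd38-/- against Cd38+/- the quality weights called 5 members (Gpc5, Sparcl1, Thbs2 and Gpc6 lower, Thbs4 higher) and 3120 genes, in a fit whose weights did not converge; the same lack of convergence held for Cd38+/- against Cd38+/+. The 4 calls over all genes became 1 with median-ratio scaling, 1 with all 12 libraries, 2 with the block, 2 with trend removal, 306 with block and trend removal, and 0 to 93 without single libraries (93 without Cd38-/- replicate 4, 0 without Cd38+/- replicate 3).

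The members that were not called changed sign in places. In Cd38-/- against Cd38+/+, the log2 fold change of Sparcl1 became -0.07 with median-ratio scaling, -0.11 with the replicate block, -0.20 with trend removal and -0.40 with both, that of Gpc4 -0.0019 with weights, -0.15 with trend removal, -0.04 with quantile normalization and -0.03 with median-ratio scaling, that of Gpc5 -0.09 with trend removal and -0.27 with the block as well, and that of Chrdl1 -0.26 with quantile normalization. In Cd38+/- against Cd38+/+, Sparc became 0.05 with weights, Gpc4 -0.02 with trend removal, with or without the block, and Chrdl1 -0.11 with quantile normalization. In Cd38-/- against Cd38+/-, Thbs4 became 0.74 with weights, Gpc4 0.23 with the block and 0.18 with block and trend removal, Thbs1 0.05 at a pseudocount of 0.1, and Chrdl1 0.04 at a pseudocount of 5, 0.27 with weights, 0.0031 with median-ratio scaling, 0.55 with the block, 0.01 with trend removal and 0.51 with both. Leaving out single libraries gave ranges that crossed 0 for Sparcl1 (-0.07 to 0.14) and Gpc4 (-0.06 to 0.18) in the first comparison, for Sparc (-0.23 to 0.02) and Gpc4 (-0.06 to 0.39) in the second, and for Thbs4 (-0.73 to 0.22), Gpc4 (-0.30 to 0.15), Chrdl1 (-0.37 to 0.18) and Thbs1 (-0.38 to 0.56) in the third. With the replicate block, Thbs4 in Cd38-/- against Cd38+/+ had a log2 fold change of 2.75 (limma, q = 0.325), or 2.49 with the trend removed as well (limma, q = 0.328). Same-numbered deviations correlated at -0.095, -0.041 and -0.057 in Cd38-/- and Cd38+/+, and at -0.003, 0.042 and 0.051 in Cd38+/- and Cd38+/+. They correlated at 0.501, -0.317 and -0.003 in Cd38-/- and Cd38+/-. Differently numbered ones ran from -0.557 to 0.529, so these values do not settle whether the numbers pair the libraries.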
